A study of Mus musculus with 76 samples.

Results

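Among macrophages of the mouse atrioventricular (AV) node that carry the MHC class II transcript H2-Aa, 25 cells high in Lyve1 were set against 28 cells low in Lyve1. The 53 cells were those with H2-Aa at 100 counts per 1000000 (CPM) or more, out of 75 cells in all. A cell was called Lyve1-high with Lyve1 at 100 CPM or more and Lyve1-low below 100 CPM. The groups were thus chosen by the measured Lyve1 and H2-Aa levels of these same cells, so both genes are described and nothing rests on them.

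Lyve1 encodes a membrane receptor for hyaluronan, a sugar polymer of the extracellular matrix. It was named for lymphatic endothelium and is also known from tissue-resident macrophages, in the mouse heart from those that maintain themselves locally and carry Folr2 and Timd4. MHC class II molecules present peptides of engulfed proteins to CD4+ T cells, and in many mouse tissues the macrophages highest in class II are low in Lyve1. The chemokine receptor Ccr2 marks cardiac macrophages that are replenished from blood monocytes.

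The study profiled single macrophages of 1 kind, with no treated or control arm. Per the labels' protocols, AV node tissue of wild-type C57BL/6J mice was digested with collagenases, DNase and hyaluronidase. Live cells were sorted as positive for CD45, CD11b and F4/80, with little or intermediate Ly6C and without markers of lymphocytes, neutrophils and red cells, and a Fluidigm C1 chip isolated them singly. Both groups compared here share strain, genotype, tissue and sort, and the labels give no age, sex, animal, chip or date. The 53 cells therefore count as 1 sample, and no test between the groups was possible: sizes, ranges and SDs over cells are given, and they say nothing about the spread between animals.

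The 76 libraries held an estimated 259569 to 6294377 reads and 2324 to 4382 genes above 0. Transcriptomes 13 and 19 were nearly identical: log2(CPM + 1) correlated over genes with Pearson r of 0.978, and none of the remaining 2849 pairs exceeded 0.421. They were averaged as 1 cell, which lies outside the 53 compared. Depth overlapped between the groups: the Lyve1-high cells had medians of 2462940 estimated reads and 3208 genes above 0, and the Lyve1-low cells medians of 2103260 reads and 3013.5 genes. A transcript of the Y chromosome was above 0 in 23 of 25 Lyve1-high and 24 of 28 Lyve1-low cells. Both groups carried Lyz2, the lysozyme of macrophages, at high level: 20453 ± 7771 CPM in Lyve1-high and 21492 ± 10432 CPM in Lyve1-low cells (SD, n = 25 and 28). Not all macrophage markers were as even. In mean log2(CPM + 1), Lyve1-high minus Lyve1-low, the 12 compared differed by -2.63 (Mpeg1) to 2.36 (Fcgr1). Of these markers 8 were above 0 and 4 below, with a median of 0.47. Of 8 listed genes of lymphatic endothelium, the cell type Lyve1 is named for, 1 had values: Pdpn reached at most 29.6 CPM in Lyve1-high and 22.8 CPM in Lyve1-low cells and was 0 in most of both.

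Lyve1 varied widely among the H2-Aa-positive cells. It measured 142 to 5146 CPM with a median of 955 in the Lyve1-high cells, against 0 to 69.1 CPM with a median of 1.55 in the Lyve1-low cells. The lowest Lyve1-high cells had 142 and 162 CPM and the highest Lyve1-low cells 69.1 and 54.5 CPM. Of the 28 Lyve1-low cells 24 lay below 10 CPM, and 3 were listed at 0. H2-Aa, the alpha chain of the class II molecule I-A, measured 105 to 23055 CPM with a median of 5526 in the Lyve1-high cells, against 5900.1 to 44379.5 CPM with a median of 16339 in the Lyve1-low cells. The rule asked only for 100 CPM, yet every Lyve1-low cell lay above the Lyve1-high median. The lowest H2-Aa values kept were 105 and 131 CPM, both in Lyve1-high cells, and the highest left out were 42.6 and 28.5 CPM.

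**Figure D1:**
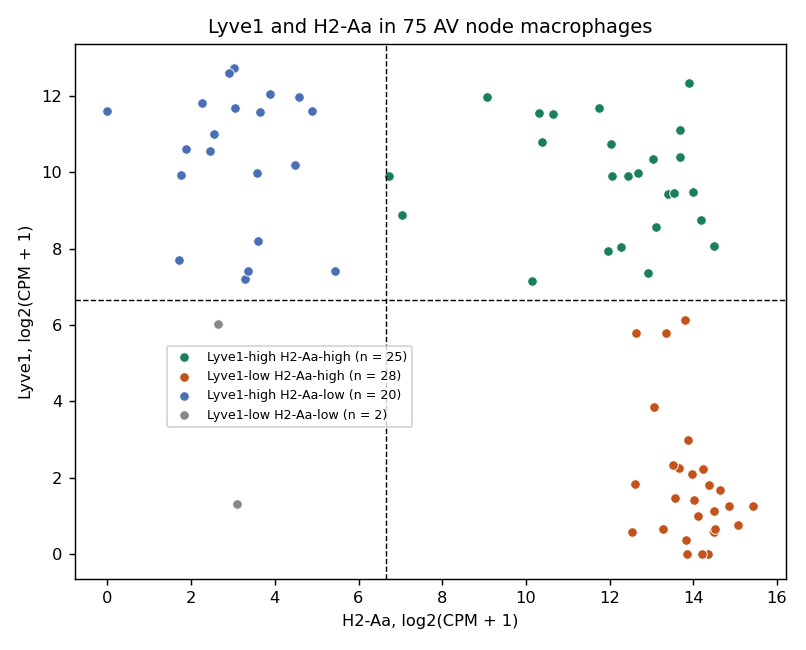
Each point is 1 of 75 cells, with H2-Aa on the horizontal and Lyve1 on the vertical axis, both as log2(CPM + 1). Dashed lines mark 100 CPM. The 25 Lyve1-high H2-Aa-high cells are spread widely along H2-Aa, while the 28 Lyve1-low H2-Aa-high cells sit together at the right, with H2-Aa of 5900 CPM or more.

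Class II genes are switched on together through short conserved promoter elements, an X2 box and a Y box, bound by the enhanceosome on which the coactivator Ciita acts. Stretches of 70 bases around letters of the Y type are shown for H2-Aa, which chose the cells, and for H2-DMb1, H2-DMb2 and H2-Eb1, class II genes lower in the Lyve1-high cells, picked because their promoters hold the letters of both types. They are RefSeq promoter sequences on GRCm38.p6, read along the gene's own strand, and the authors' build is another one (mm9), so no position is carried over. Capitals mark GATGATGC, letters of an X2-type element, and TGATTGG, letters of a Y-type element, which were picked after these sequences were read.
H2-DMb1: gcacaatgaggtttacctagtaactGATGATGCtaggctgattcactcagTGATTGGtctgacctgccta
H2-DMb2: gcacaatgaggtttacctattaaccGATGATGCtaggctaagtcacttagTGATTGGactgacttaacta
H2-Eb1: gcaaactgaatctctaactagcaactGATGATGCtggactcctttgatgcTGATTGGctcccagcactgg
H2-Aa: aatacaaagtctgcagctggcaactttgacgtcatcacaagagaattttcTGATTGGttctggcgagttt
The stretches lie at chr17:34153078-34153147 (plus strand, H2-DMb1), chr17:34145107-34145176 (plus strand, H2-DMb2), chr17:34305756-34305825 (plus strand, H2-Eb1) and chr17:34287854-34287923 (minus strand, H2-Aa). The first base of TGATTGG stands 63 bases before the gene start in H2-DMb1, 92 in H2-DMb2, 61 in H2-Eb1 and 50 in H2-Aa. Searched on both strands of the 250 bases before each gene start, TGATTGG occurs in 2375 of 32851 promoters (7.23%), GATGATGC in 189 (0.575%) and both in 14 (0.0426%). GATGATGC is not in the H2-Aa window, which does not show that H2-Aa lacks an X2 box. Only these exact letters were searched, and other forms of the element were not. Of 7 other class II genes with an entry 6 hold TGATTGG and 3 hold GATGATGC: H2-DMa, which was lower as well, holds neither, while H2-Oa and H2-Ob, which did not differ by 2, hold TGATTGG. The letters do not overlap each other, and a match is a description of the sequence, not a measured site.

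Between the groups, 200 of 8349 genes were higher in Lyve1-high cells by 2 or more in mean log2(CPM + 1), which is 2.4% of those compared, and 91 were lower by 2 or more, which is 1.09%. The genes compared were those above 0 in 8 or more of the 75 cells, without Lyve1 and H2-Aa. The median difference over them was close to 0, at 0.0044, with 50.4% of genes above 0. No gene separated the groups without overlap in either direction. In what follows a difference is that of mean log2(CPM + 1), Lyve1-high minus Lyve1-low, and higher or lower without a value means past 2. A gene past 2 is called here, with no test behind the word. Within each group, single cells ranged from 0 to over 1000 CPM for many of the genes named below.

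**Figure D2:**
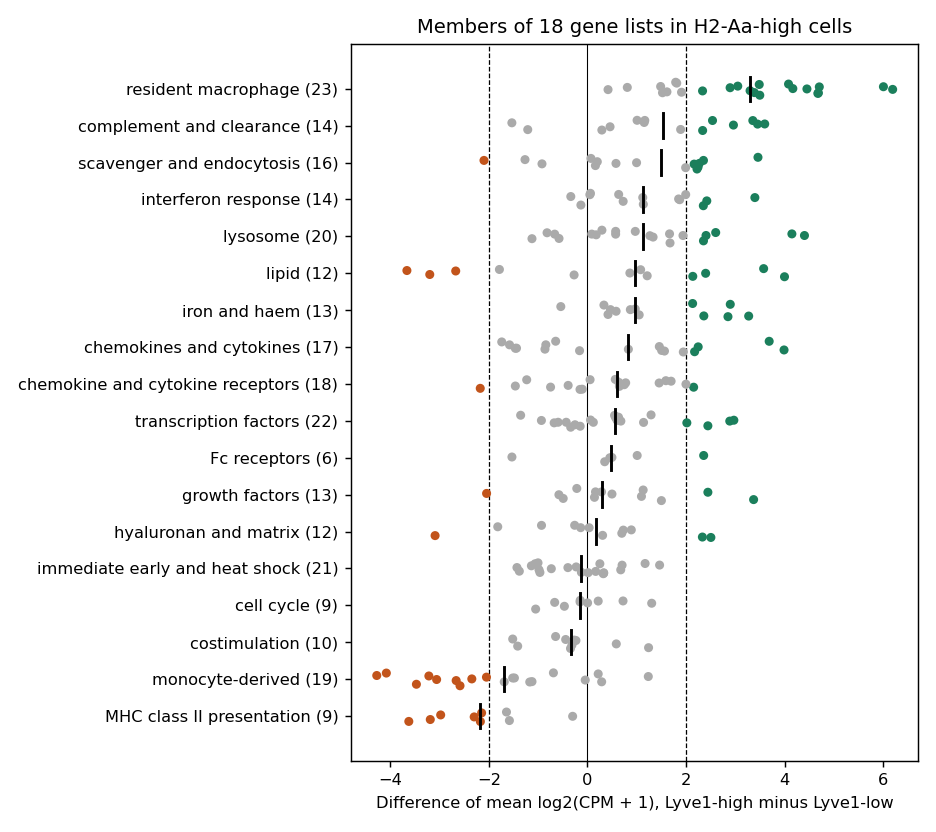
Each point is 1 gene of a list, placed by its difference of mean log2(CPM + 1), Lyve1-high minus Lyve1-low, with black bars at each list's median and the number of genes compared in brackets. Dashed lines mark 2 and -2, green points are higher in Lyve1-high cells and orange points lower. The resident macrophage list lies entirely above 0, with a median of 3.30, and the MHC class II list entirely below it, with a median of -2.17.

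Most list counts fell with a pseudocount of 10 CPM in place of 1, with which 58 genes in all were higher (0.695%). The resident macrophage list then had 14 higher genes, the complement list 3, the lysosomal list 3, the scavenger receptor list 2, the chemokine list 2, the transcription factor list 2 and the iron and haem list 1.

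The list of resident macrophage genes was the one most of whose members were higher in Lyve1-high cells. Of 25 listed names 23 were compared (Selenop is a newer name of Sepp1, and Cd209d was above 0 in too few cells), and all 23 had a positive difference. Of these, 15 were higher and none lower (65.2% against 2.4% of all genes), and their median difference was 3.30. This list, like the others, was chosen with earlier results of these data known, so its share is a description and no independent support. Its members Folr2, Cbr2, Timd4, Ltc4s, Ninj1 and Ednrb are also among the 12 largest positive differences. Folr2, the beta folate receptor that internalises folates, had the largest difference of all genes, 6.19. It measured 15.8 to 4176 CPM with a median of 1953 in the Lyve1-high cells, against 0.7 to 7868 CPM with a median of 3.7 in the Lyve1-low cells. Of the Lyve1-high cells 24 of 25 reached 100 CPM, while the Lyve1-low cells fell apart into 9 at 100 CPM or more and 18 below 10 CPM.

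Cbr2, a carbonyl reductase, followed with a difference of 6.00. It measured 130 to 5518 CPM in the Lyve1-high cells (median 2164) and 0 to 4072 CPM in the Lyve1-low cells (median 6.8), and its mean CPM was 4.05 times as high in Lyve1-high cells. All 25 Lyve1-high cells reached 100 CPM, against 10 of 28 Lyve1-low cells. Timd4, a receptor for phosphatidylserine on dying cells, measured 0 to 1439.5 CPM in the Lyve1-high cells (median 75.4) and 0 to 372 CPM in the Lyve1-low cells (median 0.15), a difference of 4.70. It reached 100 CPM in 12 of 25 Lyve1-high cells (48%, exact 95% Clopper-Pearson interval 27.8 to 68.7%) and in 2 of 28 Lyve1-low cells (7.14%, interval 0.877 to 23.5%), intervals that cover counting error only. Timd4 was thus rare among the Lyve1-low cells and divided the Lyve1-high ones.

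Enzymes and receptors of this list were detected in most Lyve1-high cells and were near 0 in most Lyve1-low cells. Ltc4s, the synthase of leukotriene C4, differed by 4.69 and reached 10 CPM in 20 of 25 Lyve1-high and 4 of 28 Lyve1-low cells. Ninj1, a membrane protein that ruptures the plasma membrane of dying cells, differed by 4.67 and reached 10 CPM in 16 of 25 Lyve1-high and 5 of 28 Lyve1-low cells. Ednrb, the type B endothelin receptor, differed by 4.45 and reached 10 CPM in 16 of 25 Lyve1-high and 4 of 28 Lyve1-low cells. In each of these 3 genes some Lyve1-high cells were at 0, so the transcript was common but not universal there.

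Secreted products of the list were higher as well. Gas6, a ligand of the Tyro3, Axl and Mertk receptors that bridges macrophages to dying cells, measured 0 to 2033 CPM in the Lyve1-high cells (median 119) and 0 to 2649 CPM in the Lyve1-low cells (median 0.5), a difference of 4.17. Rnase4, a secreted ribonuclease, differed by 4.08 and reached 100 CPM in 16 of 25 Lyve1-high and 7 of 28 Lyve1-low cells. F13a1, the A subunit of coagulation factor XIII, was abundant in both groups and differed by 2.89, with means of 7555 ± 3667 CPM in Lyve1-high and 2582 ± 2310.4 CPM in Lyve1-low cells (SD, n = 25 and 28). Sepp1, the selenium carrier selenoprotein P, differed by 2.34, with means of 8574 ± 3741 CPM in Lyve1-high and 4121 ± 4019 CPM in Lyve1-low cells. No Lyve1-high cell had less than 4014 CPM of Sepp1, while the lowest Lyve1-low cell had 8.6 CPM.

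The scavenger receptors of the list varied more from cell to cell. Cd163, the receptor for haemoglobin-haptoglobin complexes, measured 0 to 4317 CPM with a median of 494 in the Lyve1-high cells, against 0 to 4397 CPM with a median of 11.4 in the Lyve1-low cells, a difference of 3.30. Stab1, a scavenger receptor for modified proteins, differed by 3.05 and reached 100 CPM in 18 of 25 Lyve1-high and 10 of 28 Lyve1-low cells. Mrc1, the mannose receptor, did not pass, with a difference of 1.49. It reached 100 CPM in all 25 Lyve1-high cells and in 26 of 28 Lyve1-low cells, so it was a transcript of nearly all class II-positive cells. The other higher members were Fcgrt, Wwp1 and Pmp22, with differences of 3.50, 3.49 and 3.39.

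The count for this list was as large among cells of like H2-Aa, though its median was smaller. Among the 12 Lyve1-high and 23 Lyve1-low cells whose H2-Aa lay in the range shared by both groups, 5900 to 23055 CPM, 18 of the 23 genes were higher and none lower. Their median was 2.62, and 3.14% of all genes were higher there. With cells of Ccr2 at 100 CPM or more left out, which kept 20 Lyve1-high and 13 Lyve1-low cells, 13 were higher and none lower, with a median of 2.55. In that setting 4.37% of all genes were higher, and the median over all genes was itself 0.18. With the log2 ratio of mean CPM, 9 list genes were higher and none lower, with a median of 1.66, against 14.4% of all genes higher. Folr2 was at 1.66 there and not called.

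Outside the lists, 5 further genes were among the 12 most different in this direction, beside the lysosomal Hexa. Prune2 measured 566 to 4618 CPM with a median of 1739 in the Lyve1-high cells, against 0 to 4334 CPM with a median of 4 in the Lyve1-low cells, a difference of 5.54. Every Lyve1-high cell was above 500 CPM, whereas the Lyve1-low cells split into 12 at 100 CPM or more and 16 below 10 CPM. Ly6e, a lipid-anchored surface protein, measured 301 to 14206 CPM in the Lyve1-high cells (median 2479) and 0.3 to 4597 CPM in the Lyve1-low cells (median 52.2), a difference of 5.37. Ms4a7, a 4-pass membrane protein of macrophages, differed by 5.00 and reached 10 CPM in 24 of 25 Lyve1-high and 8 of 28 Lyve1-low cells. Its relative Ms4a6b differed by 5.49 and reached 10 CPM in 23 of 25 Lyve1-high and 11 of 28 Lyve1-low cells, and since Ms4a6 genes are close copies, reads may have been divided among them. Fxyd2, a regulatory subunit of the sodium pump, differed by 4.55 and reached 10 CPM in 21 of 25 Lyve1-high and 7 of 28 Lyve1-low cells.

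**Figure D3:**
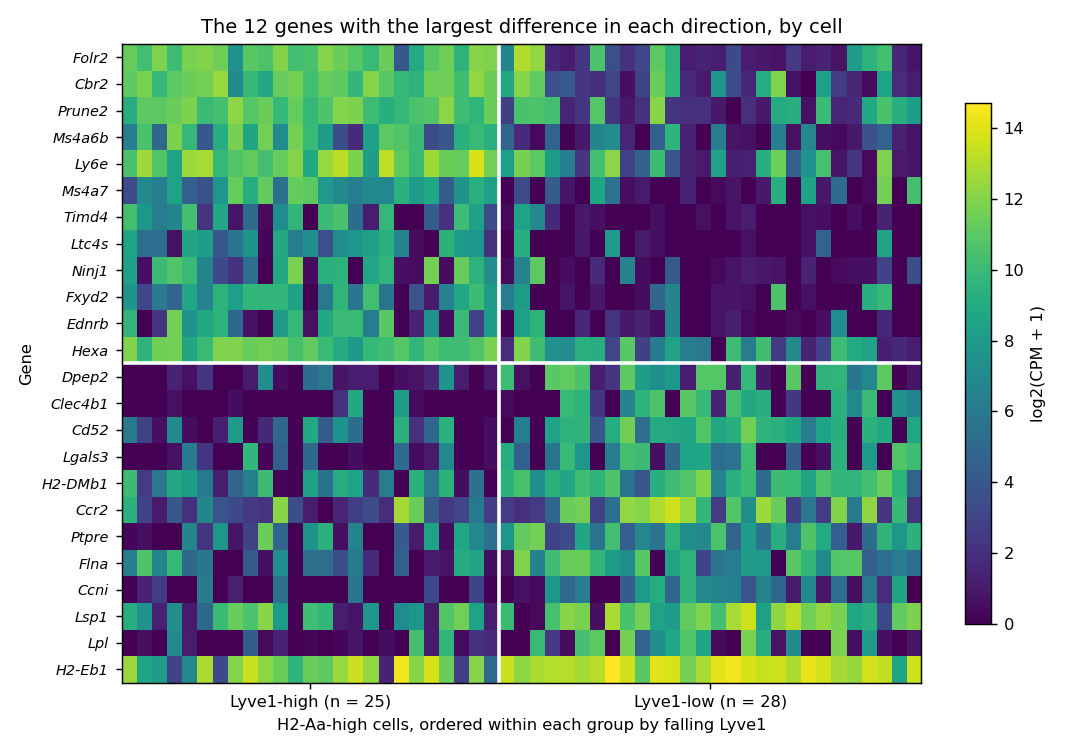
Columns are the 53 H2-Aa-high cells, 25 Lyve1-high cells on the left and 28 Lyve1-low cells on the right, ordered within each group by falling Lyve1, and colour is log2(CPM + 1). Rows are the 12 genes with the largest positive and, under the white line, the 12 with the largest negative difference. Folr2, Cbr2, Prune2, Ly6e and Hexa fill nearly all Lyve1-high cells, while some Lyve1-low cells carry them at the same level.

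The MHC class II genes ran the other way. Of 10 listed genes beside H2-Aa 9 were compared, all 9 had a negative difference, and 6 were lower in Lyve1-high cells (66.7% against 1.09% of all genes), with a median of -2.17. Since H2-Aa chose the cells and class II genes are known to be transcribed together, these counts describe the split and are not independent of it. H2-Ab1, the beta chain that pairs with H2-Aa, measured 37.7 to 24276 CPM with a median of 6579.8 in the Lyve1-high cells, against 2270.5 to 38733 CPM with a median of 16389 in the Lyve1-low cells, a difference of -2.17. H2-Eb1, the beta chain of I-E, whose alpha chain gene is defective in the C57BL/6 strain, measured 1.8 to 22253 CPM with a median of 2745 in the Lyve1-high cells, against 356 to 26860.4 CPM with a median of 10930 in the Lyve1-low cells, a difference of -3.19. All 28 Lyve1-low cells carried both beta chains above 100 CPM, and 4 of 25 Lyve1-high cells had less than 10 CPM of H2-Eb1.

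The genes of peptide loading were lower as well. H2-DMb1, the beta chain of the H2-DM complex that exchanges the invariant chain peptide for antigenic peptides, measured 0 to 1086 CPM with a median of 56.6 in the Lyve1-high cells, against 14.2 to 3889.9 CPM with a median of 785 in the Lyve1-low cells, a difference of -3.62. Its partner H2-DMa differed by -2.98 and reached 100 CPM in 18 of 25 Lyve1-high and 27 of 28 Lyve1-low cells. The second beta chain gene, H2-DMb2, was practically absent from Lyve1-high cells, with at most 1.2 CPM, and reached 10 CPM in 7 of 28 Lyve1-low cells and up to 1098 CPM, a difference of -2.30. H2-DMb1 and H2-DMb2 are near-identical copies, so reads may have been divided between them.

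Cd74, the invariant chain that escorts class II molecules, differed by less than 2, at -1.64, with means of 15216 ± 11719 CPM in Lyve1-high and 33068 ± 14824 CPM in Lyve1-low cells (SD, n = 25 and 28). Ciita, the class II coactivator, reached 10 CPM in 4 of 25 Lyve1-high and 16 of 28 Lyve1-low cells, a difference of -2.15. A single Lyve1-high cell with 6270 CPM made its mean CPM higher in that group, 308 CPM against 242 CPM, the opposite of the difference on the log scale. H2-Oa and H2-Ob, whose product restrains H2-DM, differed by -0.30 and -1.58.

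The class II difference was smaller among cells of like H2-Aa. Within the shared H2-Aa range 2 of 9 genes were lower, with a median of -0.38: H2-DMb1 at -2.94 and H2-DMb2 at -2.37. Of all genes 2.68% were lower there. H2-Ab1, H2-Eb1 and Cd74 differed there by -0.14, -0.12 and -0.24. With log2 H2-Aa as a covariate 2 genes were lower, with a median of -1.06, against 1.77% of all genes. Leaving out 1 cell ended the call for H2-Ab1 (-1.90 without transcriptome 63) and for Ciita (-1.87 without transcriptome 34).

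Costimulatory and coinhibitory genes, which act beside class II in T cell contact, did not differ by 2 in either direction in the main comparison. Of 11 listed genes 10 were compared, with differences between -1.51 and 1.24 and a median of -0.33. Cd83, which stabilises surface class II and Cd86, measured 0 to 6742 CPM in the Lyve1-high cells (median 295) and 0 to 7111 CPM in the Lyve1-low cells (median 33.6), a difference of 1.24. Cd86, a ligand of Cd28, differed by -0.44 and reached 100 CPM in 10 of 25 Lyve1-high and 15 of 28 Lyve1-low cells. Both were patchy in each group. In other settings the list was less flat. Among cells below 100 CPM of Ccr2, 3 of the 10 were lower (1.43% of all genes were), with a median of -0.70. Cd83 differed there by -1.33, the opposite sign. With the log2 ratio of mean CPM, 3 were lower, against 15.8% of all genes.

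Among genes associated with monocyte-derived cells, 9 of 19 compared were lower in Lyve1-high cells and none higher (47.4% against 1.09% of all genes), with a median of -1.69. Of 28 listed genes 9 had no values. Ccr2, the receptor for monocyte chemoattractants, measured 0 to 6790.5 CPM with a median of 7.3 in the Lyve1-high cells, against 3 to 13014 CPM with a median of 499.9 in the Lyve1-low cells, a difference of -3.47. It reached 100 CPM in 5 of 25 Lyve1-high cells (20%, interval 6.83 to 40.7%) and in 15 of 28 Lyve1-low cells (53.6%, interval 33.9 to 72.5%). The transcript thus divided the Lyve1-low cells and was abundant in a few Lyve1-high cells as well.

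Clec4b1, a C-type lectin, reached 10 CPM in 2 of 25 Lyve1-high and 15 of 28 Lyve1-low cells, a difference of -4.27. Cd52, a small lipid-anchored glycopeptide of leukocytes, measured 0 to 699.6 CPM with a median of 3.3 in the Lyve1-high cells, against 0 to 3069 CPM with a median of 459 in the Lyve1-low cells, a difference of -4.08. Lsp1, an actin-binding protein of leukocytes, differed by -3.22, with means of 736 ± 1125 CPM in Lyve1-high and 2970.4 ± 3116 CPM in Lyve1-low cells (SD, n = 25 and 28). Ear2, an eosinophil-associated ribonuclease with several near-identical relatives, did not exceed 1.2 CPM in any Lyve1-high cell and reached 100 CPM in 8 of 28 Lyve1-low cells, a difference of -3.06. Among the 53 cells Ear2 was thus a transcript of some Lyve1-low cells.

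The other lower members were the calcium-binding S100a4 and S100a6, the lysozyme Lyz1 and Emb, which encodes the adhesion protein embigin, with differences of -2.66, -2.34, -2.05 and -2.58. Lyz1 shares much of its sequence with Lyz2, so its reads may be partly those of Lyz2, and its call ended without transcriptome 69 (-1.78). In contrast, Crip1 and Ifitm3 of the same list differed by 0.29 and 1.24. The count moved with genes detected. Among cells with fewer genes above 0, 3 were lower, with a median of -0.33, against 2.19% of all genes. Among those with more, 14 were lower, with a median of -3.80, against 5.88% of all genes. The count was 5 with a pseudocount of 10 CPM, with log2 H2-Aa as a covariate and at a Lyve1 threshold of 1000 CPM. Of all genes 0.24%, 1.77% and 1.63% were lower in these settings. The list's difference also moved with Ccr2: among cells below 100 CPM of Ccr2, 2 of 19 genes were lower and 2 higher, with a median of -0.11. In that setting 1.43% of all genes were lower and 4.37% higher. There Clec4b1 differed by -0.95, while Cd52 still differed by -2.84. S100a6 at 1.51 and Emb at 0.86 changed direction in those cells.

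Further genes lower in Lyve1-high cells lay outside that list. Dpep2, a membrane dipeptidase that cleaves leukotriene D4, had the most negative difference of all, -4.50. It measured 0 to 196 CPM with a median of 0.7 in the Lyve1-high cells, against 0 to 2263 CPM with a median of 194 in the Lyve1-low cells. Only 4 of 25 Lyve1-high cells reached 10 CPM, against 17 of 28 Lyve1-low cells, and the difference was -3.91 among cells below 100 CPM of Ccr2. Lgals3, the sugar-binding galectin-3, measured 0 to 842 CPM in the Lyve1-high cells (median 0.2) and 0 to 1709.8 CPM in the Lyve1-low cells (median 50), a difference of -3.66. Lpl, the lipoprotein lipase, reached 10 CPM in 4 of 25 Lyve1-high and 14 of 28 Lyve1-low cells and differed by -3.20. Both genes are in the lipid list as well.

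Genes of the cytoskeleton, signalling and cell cycle type completed the 12. Flna, the actin cross-linker filamin A, differed by -3.31 and reached 100 CPM in 6 of 25 Lyve1-high and 17 of 28 Lyve1-low cells. Ptpre, a receptor-type tyrosine phosphatase, differed by -3.39 and reached 100 CPM in 8 of 25 Lyve1-high and 17 of 28 Lyve1-low cells. Ccni, cyclin I, differed by -3.24, was below 100 CPM in every Lyve1-high cell and reached 100 CPM in 7 of 28 Lyve1-low cells. Of these 3 genes, Flna and Ptpre were still found at over 1000 CPM in single Lyve1-high cells.

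Complement genes were frequently higher in Lyve1-high cells. Of 14 compared of 16 listed, 6 were higher and none lower (42.9% against 2.4%), with a median of 1.53. The log2 ratio of mean CPM gave 2 higher and 1 lower, with a median of 0.44, against 14.4% and 15.8% of all genes. C1qc, a chain of the recognition molecule C1q, measured 134 to 3459.9 CPM with a median of 1213 in the Lyve1-high cells, against 0 to 2653 CPM with a median of 202 in the Lyve1-low cells, a difference of 2.96. All Lyve1-high cells held it at 100 CPM or more, and 19 of 28 Lyve1-low cells did. C1qa differed by 2.54 and C1qb, the third chain, by 1.89.

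The receptors for the complement peptides C5a and C3a were higher too. C5ar1 measured 0 to 5075 CPM in the Lyve1-high cells (median 1344) and 0.5 to 5369 CPM in the Lyve1-low cells (median 61.6), a difference of 3.60. C3ar1 differed by 2.34 on the log scale, but its mean CPM was slightly lower in Lyve1-high cells, 1155 CPM against 1194 CPM in Lyve1-low cells. It reached 100 CPM in 24 of 25 Lyve1-high and 17 of 28 Lyve1-low cells. C4b, a complement component with near-identical relatives, reached 10 CPM in 13 of 25 Lyve1-high and 2 of 28 Lyve1-low cells, a difference of 3.45. The complement counts moved with Ccr2: in cells below 100 CPM of Ccr2, 2 genes were higher and 1 lower, with a median of 0.36, and C1qa and C1qc differed by 0.37 and 1.00. In that setting 4.37% of all genes were higher and 1.43% lower. Among cells with fewer genes detected 2 were higher and 1 lower, and among those with more 9 were higher and 1 lower. The list medians were 0.69 and 3.60. Of all genes 5.02% and 4.18% were higher in these parts, and 2.19% and 5.88% lower.

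Fc receptors, which bind antibody complexes, mostly differed by less than 2. Of 6 genes 1 was higher (16.7% against 2.4% of all genes): Fcgr1, the high-affinity receptor, with a difference of 2.36 and 100 CPM or more in 13 of 25 Lyve1-high and 7 of 28 Lyve1-low cells. Fcgr3 and the signalling chain Fcer1g were in nearly all cells and differed by 0.50 and 0.35. Fcgr4, an activating receptor, reached 100 CPM in 5 of 28 Lyve1-low cells and in no Lyve1-high cell, with a difference of -1.53.

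In the scavenger receptor and endocytosis list, 7 of 16 genes were higher (43.8% against 2.4% of all genes) and 1 lower (6.25% against 1.09%), and 13 of 16 had a positive difference. At a Lyve1 threshold of 1000 CPM 1 was higher and 1 lower, with a median of -0.01, against 3.07% and 1.63% of all genes. The log2 ratio of mean CPM gave 1 higher and none lower, against 14.4% and 15.8% of all genes. Colec12, a collectin-type scavenger receptor, reached 10 CPM in 11 of 25 Lyve1-high and 2 of 28 Lyve1-low cells, a difference of 3.46. Dab2, a clathrin adaptor of lipoprotein receptors, was in nearly all cells and differed by 2.24, with means of 3098 ± 2302 CPM in Lyve1-high and 1460.1 ± 1519 CPM in Lyve1-low cells (SD, n = 25 and 28). Lrp1, a large endocytic receptor, and Snx2, a sorting nexin of endosomes, differed by 2.35 and 2.27. The fatty acid receptor Cd36, the adaptor subunit Ap2a2 and the scaffold Itsn1 differed by 2.17, 2.22 and 2.22. The lower gene was Clec7a, the beta-glucan receptor dectin-1, at -2.10. Of these, Dab2 (1.95 without transcriptome 46), Cd36 (1.89 without transcriptome 15), Ap2a2 (1.96 without transcriptome 4), Itsn1 (1.95 without transcriptome 53) and Clec7a (-1.84 without transcriptome 57) lost the call when 1 cell was left out.

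Of the chemokines and cytokines, 4 of 17 compared of 29 listed were higher and none lower (23.5% against 2.4% of all genes), all 4 being ligands of the CC family. With the log2 ratio of mean CPM, 1 was higher and 6 were lower, against 14.4% and 15.8% of all genes. Ccl24, a ligand of Ccr3, measured 0 to 1791 CPM in the Lyve1-high cells (median 122) and 0 to 2088 CPM in the Lyve1-low cells (median 0.2), a difference of 3.99. Ccl8 reached 10 CPM in 14 of 25 Lyve1-high and 4 of 28 Lyve1-low cells, a difference of 3.69. Ccl2, the main ligand of Ccr2, reached 100 CPM in 15 of 25 Lyve1-high and 8 of 28 Lyve1-low cells, a difference of 2.25. Its close copy Ccl12 differed by 2.17, a call that ended without transcriptome 21 (1.89), and reads of Ccl2 and Ccl12 may have been divided between them. Ccl2 and Ccl12, both ligands of Ccr2, were thus more frequent in the Lyve1-high cells, in which Ccr2 itself was less frequent.

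Not all secreted factors followed. Ccl6, present in nearly all cells, differed by 0.83. Retnla, a secreted product of alternatively activated macrophages, differed by -1.74 and reached 100 CPM in 9 of 25 Lyve1-high and 13 of 28 Lyve1-low cells. Its highest value was 5083 CPM in Lyve1-high and 57872 CPM in Lyve1-low cells. The inflammatory chemokines Ccl3 and Ccl4 differed by -1.46 and -1.58, and each was at 100 CPM or more in 1 of 25 Lyve1-high and 6 of 28 Lyve1-low cells.

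Of 18 chemokine and cytokine receptors 1 was higher (5.56% against 2.4% of all genes) and 1 lower (5.56% against 1.09%), shares that rest on 1 gene each. Cmklr1, the chemerin receptor, differed by 2.16 and Tnfrsf1b, the type 2 TNF receptor, by -2.17, and each call ended when 1 cell was left out (1.91 without transcriptome 53 and -1.89 without transcriptome 10). Csf1r, the receptor for the macrophage growth factor Csf1, measured 4.6 to 8998 CPM in the Lyve1-high cells (median 3004) and 0.7 to 6241 CPM in the Lyve1-low cells (median 378), a difference of 1.999 that falls just short of 2. Cx3cr1, the fractalkine receptor, differed by -1.23 and was below 10 CPM in most cells of both groups.

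Growth factors and their receptors gave 2 higher genes (15.4% against 2.4% of all genes) and 1 lower gene (7.69% against 1.09%) of 13 compared. With the log2 ratio of mean CPM 2 were higher and 4 lower, against 14.4% and 15.8% of all genes. Igf1, insulin-like growth factor 1, measured 0.5 to 4092 CPM with a median of 1018 in the Lyve1-high cells, against 0 to 4772 CPM with a median of 147 in the Lyve1-low cells, a difference of 3.37. It reached 100 CPM in 21 of 25 Lyve1-high cells and in 14 of 28 Lyve1-low cells. Nrp1, a coreceptor for VEGF and semaphorins, differed by 2.44 and reached 100 CPM in 19 of 25 Lyve1-high and 12 of 28 Lyve1-low cells. Plaur, the urokinase receptor, differed by -2.04, a call that ended without transcriptome 16 (-1.73).

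Iron and haem genes contributed 5 higher genes of 13 and none lower (38.5% against 2.4%), with a median of 0.97. Blvrb, which reduces biliverdin and flavins, measured 0 to 3079 CPM in the Lyve1-high cells (median 689) and 0 to 1040.4 CPM in the Lyve1-low cells (median 53.5), a difference of 3.27. Trf, the iron carrier transferrin, differed by 2.36 and reached 100 CPM in 23 of 25 Lyve1-high and 19 of 28 Lyve1-low cells. Tfrc, the transferrin receptor, reached 10 CPM in 11 of 25 Lyve1-high and 2 of 28 Lyve1-low cells, a difference of 2.90. Cp, ceruloplasmin, which oxidises iron for export, differed by 2.85. Slc40a1, the iron exporter ferroportin, was absent from most cells but reached 10 CPM in 6 of 25 Lyve1-high and 0 of 28 Lyve1-low cells, a difference of 2.13 that fell to 1.76 without transcriptome 53. The ferritin chains Fth1 and Ftl1 were in all cells and differed by 0.34 and 0.87.

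Lipid genes split by gene. Of 12 compared, 4 were higher (33.3% against 2.4% of all genes) and 3 lower (25% against 1.09%). Apoe, the apolipoprotein E secreted by macrophages, measured 2379 to 38142 CPM with a median of 12656 in the Lyve1-high cells, against 6.5 to 36415 CPM with a median of 1904 in the Lyve1-low cells, a difference of 3.57. Every Lyve1-high cell had at least 2379 CPM, while Lyve1-low cells covered the whole range. Abca1, which exports cholesterol to lipid-poor apolipoproteins, differed by 4.00 and reached 100 CPM in 13 of 25 Lyve1-high and 2 of 28 Lyve1-low cells. Abcg1, which exports cholesterol to mature lipoproteins, went the other way by -2.67, with 100 CPM or more in 6 of 25 Lyve1-high and 15 of 28 Lyve1-low cells.

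The other higher lipid genes were Lipa, the lysosomal acid lipase, at 2.40 and Trem2, a lipid-sensing receptor, at 2.14 (1.82 without transcriptome 1). Lgals3 and Lpl, given above, were the other lower ones. Some of this moved with Ccr2 as well. Among cells below 100 CPM of Ccr2, Apoe differed by 0.67 and Abcg1 by 1.03, which for Abcg1 is the opposite sign.

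Lysosomal genes gave 5 higher of 20 and none lower (25% against 2.4%), with a median of 1.12. Only 2 were higher and none lower with the log2 ratio of mean CPM, against 14.4% of all genes higher. The list median was 0.58 there. At a Lyve1 threshold of 1000 CPM 2 were higher and 1 lower, with a median of 0.53, against 3.07% and 1.63% of all genes. Hexa, the alpha subunit of hexosaminidase A that degrades gangliosides, measured 230.3 to 3889 CPM with a median of 1689 in the Lyve1-high cells, against 0 to 3837 CPM with a median of 96.9 in the Lyve1-low cells, a difference of 4.40. Cd63, a tetraspanin of late endosomes, differed by 4.15 and reached 10 CPM in 23 of 25 Lyve1-high and 10 of 28 Lyve1-low cells. The proteases Ctsd and Ctsa differed by 2.41 and 2.35. Ctss, the cathepsin that trims the invariant chain from class II, differed by -0.58, with means of 2218 ± 955 CPM in Lyve1-high and 3593 ± 2249.8 CPM in Lyve1-low cells (SD, n = 25 and 28).

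Of 22 transcription factors compared, 4 were higher and none lower (18.2% against 2.4% of all genes). With the log2 ratio of mean CPM 2 were higher and 2 lower, against 14.4% and 15.8% of all genes. Tcf4, an E protein, measured 0.4 to 2063 CPM in the Lyve1-high cells (median 334) and 0 to 779.8 CPM in the Lyve1-low cells (median 31.8), a difference of 2.97. Maf, a basic leucine zipper factor of macrophages, differed by 2.44. Bhlhe41, a repressor of the basic helix-loop-helix family, differed by 2.02, a call that ended without transcriptome 39 (1.80). None of the 22 was higher or lower among cells below 100 CPM of Ccr2, where Maf differed by 0.43 and Tcf4 by 1.46. Of all genes 4.37% were higher and 1.43% lower in that setting.

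Of 14 interferon-response genes compared 3 were higher (21.4% against 2.4% of all genes): the antiviral Oas2, Ifit3 and Ifi204, at 3.40, 2.42 and 2.35. Ifit3 was at 100 CPM or more in 7 of 25 Lyve1-high and 0 of 28 Lyve1-low cells, so a few cells of the Lyve1-high group carried the difference. Members of the Oas and Ifi20 families are close copies. No gene of the immediate early and heat shock list (21 compared, median -0.12) or of the cell cycle list (9 compared, median -0.15) differed by 2. Fos, Egr1 and Btg2, which respond to cell handling as well as to signals in the tissue, differed by 0.32, -1.14 and -1.43.

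Genes of hyaluronan and matrix handling, in which Lyve1 takes part, mostly differed by less than 2. Of 30 listed genes 12 were compared, with 2 higher (16.7% against 2.4% of all genes), 1 lower (8.33% against 1.09%) and a median of 0.17. Cd44, the other main hyaluronan receptor of leukocytes, measured 0 to 3637 CPM with a median of 58.9 in the Lyve1-high cells, against 0 to 3283 CPM with a median of 266 in the Lyve1-low cells, a difference of -0.93. Hyal2, a membrane-bound hyaluronidase, differed by 0.89. Timp2, an inhibitor of matrix metalloproteinases, differed by 2.50 and Tgfbi, a matrix protein induced by TGF-beta, by 2.33. Fn1, fibronectin, was below 50 CPM in every Lyve1-high cell and at 100 CPM or more in 9 of 28 Lyve1-low cells, a difference of -3.09 that had the opposite sign, 0.59, among cells below 100 CPM of Ccr2.

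No compared marker of another cell type differed by 2 apart from Pf4, and what part such markers have in the differences above was not tested. Of 15 dendritic cell markers 4 were compared, with differences from -1.63 to 1.02. Cd209a reached 100 CPM in 2 of 25 Lyve1-high and 4 of 28 Lyve1-low cells. The summed CPM of the dendritic cell markers ranged up to 3408 in Lyve1-high and up to 7031 in Lyve1-low cells, with medians of 3.7 and 47.2. Of the B cell markers Ighm, the heavy chain of IgM, was common, with 100 CPM or more in 17 of 25 Lyve1-high and 14 of 28 Lyve1-low cells and a difference of 1.56, while the B cell factor Ebf1 stayed at or below 2.4 CPM in Lyve1-high and 1.2 CPM in Lyve1-low cells. Cardiomyocyte markers summed to 434 CPM at most in Lyve1-high and 482 CPM at most in Lyve1-low cells. Pf4, a chemokine of platelets that macrophages also make, differed by 3.75, with means of 2408 ± 1532 CPM in Lyve1-high and 852 ± 970.0 CPM in Lyve1-low cells (SD, n = 25 and 28). The other 4 platelet markers listed had no values. Among the macrophage markers Mpeg1, the pore-forming perforin-2, differed by -2.63, and Emr1, which encodes F4/80, differed by 0.57.

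The Lyve1-low cells were not of 1 kind. At 100 CPM, 12 of 28 held Ccr2 without Folr2 (42.9%, interval 24.5 to 62.8%), 6 held Folr2 without Ccr2 (21.4%, interval 8.30 to 41.0%), 3 held both and 7 held neither. Of the 25 Lyve1-high cells 20 held Folr2 without Ccr2 (80%, interval 59.3 to 93.2%), 4 held both, 1 held Ccr2 without Folr2 and none held neither (interval 0 to 13.7%). Of the 5 Lyve1-high cells positive for Ccr2 4 were thus positive for Folr2 too. Since 24 of all 25 Lyve1-high cells were, that is not a trait of the Ccr2-positive ones.

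The 6 Lyve1-low cells with Folr2 and without Ccr2 were nearer to the Lyve1-high cells in some genes that were not used to pick them, and not in others. Lyve1 itself was 0 to 69.1 CPM in the 6, with a median of 29.1. They include the Lyve1-low cells nearest the threshold, at 69.1, 54.5 and 54.4 CPM. Lyve1 medians were 1.55 CPM in the 12 cells with Ccr2 alone, 2.2 CPM in the 3 with both and 0.6 CPM in the 7 with neither. Pf4 was 437 to 3022 CPM with a median of 1207 in the 6, against 0 to 968 CPM with a median of 3.4 in the 12. Its medians were 2078 CPM in the 3 with both and 906 CPM in the 7 with neither. A Pf4 median near 0 was thus found only in the 12, and the level was not particular to the 6. C1qc had medians of 1012 CPM in those 6 cells and 34.6 CPM in those 12, and Cd52 medians of 7.05 CPM and 687 CPM. In contrast, H2-DMb1 had a median of 785 CPM in those 6 cells, against 56.6 CPM in the Lyve1-high cells, and Cbr2 one of 419 CPM, against 2164 CPM in the Lyve1-high cells. Cd163 had medians of 121 CPM in the 6, 23.6 CPM in the 12 and 0.6 CPM in the 7 cells with neither transcript, against 494 CPM in the Lyve1-high cells. In those 7 cells C1qc had a median of 724 CPM and Cd52 one of 403 CPM, and Dpep2 had medians of 27.6 CPM in the 6, 539 CPM in the 12 and 773 CPM in the 7. H2-Aa was at least 5900 CPM in all 28, with medians of 11727 CPM in the 6, 17088 CPM in the 12 and 19352 CPM in the 7. These classes hold few cells, were formed from measured values, and are given as descriptions.

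Set beside the 20 Lyve1-high cells that the H2-Aa rule left out, the Lyve1-high cells of the comparison had similar mean levels of Folr2 and Timd4. Mean log2(CPM + 1) of Folr2 was 10.59 ± 1.74 in the 25 Lyve1-high H2-Aa-high cells, 11.35 ± 0.74 in the 20 Lyve1-high H2-Aa-low cells and 4.40 ± 4.19 in the 28 Lyve1-low cells (SD over cells). For Timd4 the means were 5.62 ± 3.90, 6.24 ± 3.78 and 0.92 ± 2.00 in this order of groups. For Dpep2, a gene outside that list, they were 1.61 ± 2.29, 1.89 ± 2.51 and 6.10 ± 4.58. In these 3 genes the means of both Lyve1-high groups differed by less than the SD of the Lyve1-high H2-Aa-high cells, and for Folr2 by about as much as the SD of the Lyve1-high H2-Aa-low cells.

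For a few genes the 3 groups were graded. Stab1 had means of 7.10 ± 3.47 in Lyve1-high H2-Aa-high cells, 10.05 ± 2.36 in Lyve1-high H2-Aa-low cells and 4.05 ± 3.61 in Lyve1-low cells, so the class II-positive Lyve1-high cells stood between the others. Igf1 was highest in the Lyve1-high H2-Aa-high cells, with means of 9.02 ± 3.01, against 7.00 ± 4.56 in the Lyve1-high H2-Aa-low and 5.64 ± 4.55 in the Lyve1-low cells, spreads that overlap. H2-Eb1 had means of 9.91 in Lyve1-high H2-Aa-high, 2.94 in Lyve1-high H2-Aa-low and 13.09 in Lyve1-low cells, a series that follows the rule on H2-Aa.

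**Figure D4:**
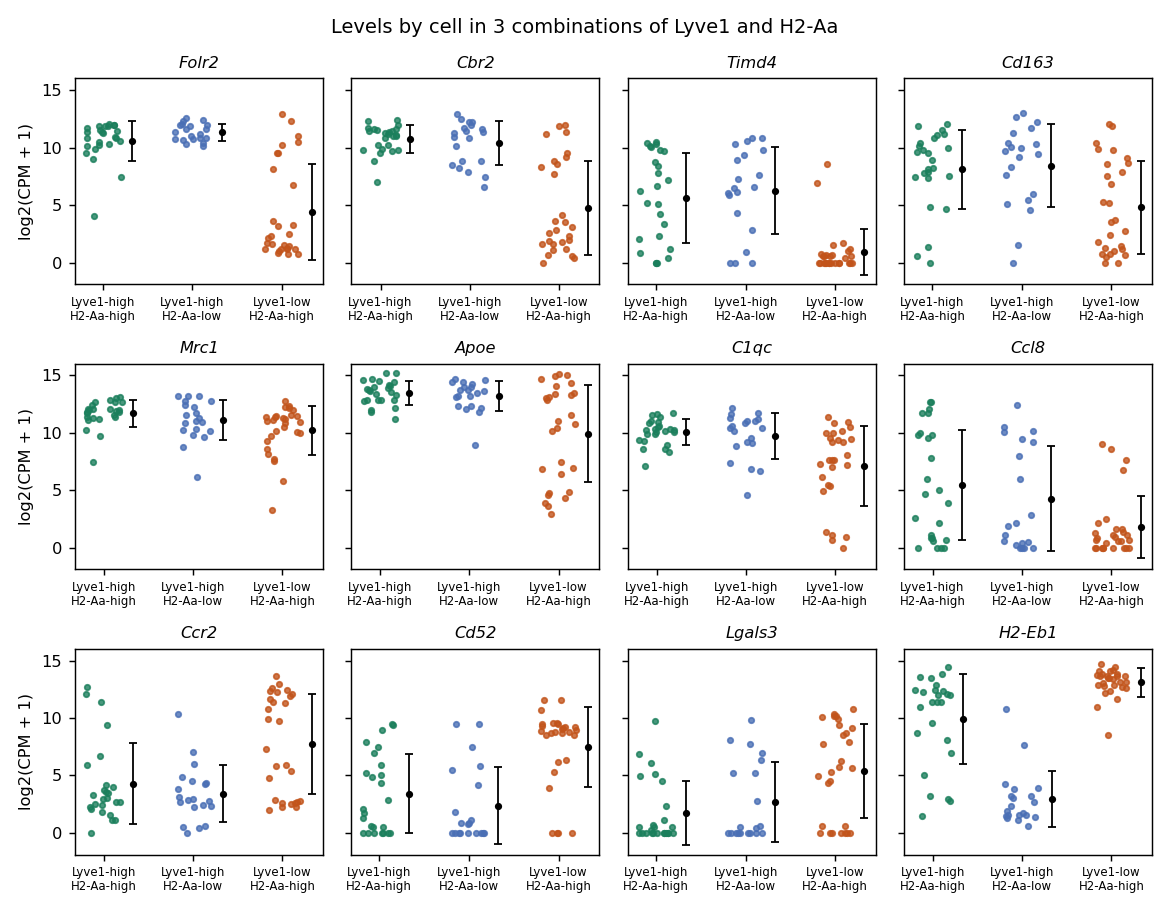
Each point is a cell and the vertical axis is log2(CPM + 1) of the gene named above the panel, with black points and bars for the mean and SD over cells. From left to right are 25 Lyve1-high H2-Aa-high, 20 Lyve1-high H2-Aa-low and 28 Lyve1-low H2-Aa-high cells. Folr2 and Cbr2 are high in both Lyve1-high groups and split the Lyve1-low cells into a low and a high band. Ccr2 divides the Lyve1-low cells as well, and the panels do not show which cells hold which transcripts together.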

How the data were processed

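Single-cell RNA sequencing of 76 AV node macrophages was analysed from 1 deposited table. The values deposited by the authors are CPM with 1 decimal, which sum to 1000000 per library over 9235 genes. Tools named are STAR 2.3.0 and HTSeq 0.6.0, on mm9, per the submitters' processing notes. Which annotation served for counting is not given in these sources. Cells were captured on a Fluidigm C1 chip and amplified with SMARTer Ultra Low RNA and Nextera XT kits, per the labels' protocols. That chemistry covers whole transcripts without molecular identifiers or strand, so amplified copies count separately and antisense reads cannot be told apart. CPM are not per length, so levels are not compared between genes.

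Of the symbols, 8378 were current, 743 older and 114 unmatched. A pseudocount of 1 CPM was added before log2. The gene filter was detection above 0 in 8 or more of 75 cells, and a call was a difference of 2 or more in mean log2(CPM + 1). Depth was estimated from the largest step of which at least 95% of low values were whole multiples within 0.051 CPM, and no count model was fitted. Shares carry exact 95% Clopper-Pearson intervals for counting error only. The calling step and the depth estimate were tested on simulated data, with the groups taken from the measured split. No doublets were called and no cell was left out.

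Named genes were the 12 largest differences in each direction that reach 10 CPM in 8 or more cells of the higher group and whose mean CPM differs the same way, Folr2, the 4 most abundant members of each list, and every list member past 2. The cells, the 18 gene lists, the 11 marker lists and the thresholds were chosen with earlier results of these data known. Alternatives covered the pseudocount, filters, thresholds, depth, H2-Aa and leaving out each cell. Python 3.11.15, numpy 2.4.6, pandas 2.3.3 and scipy 1.17.1 were used. A few list members counted in the totals are not reported here by name.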

Additional observations from a re-analysis of the deposited data

How the results depend on the processing

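Of 92 named genes past 2, 80 kept their direction in all alternatives run for each gene, which were 18, or 17 for Ifit3. Of the 92, 10 stayed past 2 in all of them: Cbr2, Ms4a6b, Ly6e, Timd4, Ltc4s, Ninj1, Ednrb, Dpep2, Cd52 and Lgals3. Some of these alternatives could not change a gene's difference: the other detection filters, and counting the nearly identical libraries as separate cells. Agreement in those settings was fixed in advance and is no sign of stability. Against 200 higher and 91 lower genes, the counts were 58 and 20 with a pseudocount of 10 CPM, 854 and 692 at differences of 1, and 54 and 17 at differences of 3. They were 1202 and 1316 with the log2 ratio of mean CPM, 370 and 243 with cells of 10 to 1000 CPM of Lyve1 left out, and 419 and 183 in the lower and 349 and 491 in the upper part of cells by genes detected. Adjusting for H2-Aa gave 250 and 148. Among alternatives chosen after seeing the data, the shared H2-Aa range gave 262 and 224 and Ccr2 below 100 CPM 365 and 119. Leaving out 1 cell gave 186 to 219 higher and 78 to 103 lower genes.

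Some named genes changed sign, and the cause was not tested. With the ratio of mean CPM these were Ciita (0.35) and C3ar1 (-0.047). At a Lyve1 threshold of 1000 CPM they were S100a6 (0.20), Itsn1 (-0.37) and Bhlhe41 (-0.048). Among cells with fewer genes detected they were S100a6 (0.00069), Fn1 (0.0098), Ccl12 (-0.38) and Abcg1 (0.35), and among those with more Lrp1 (-0.84) and Ctsd (-0.97). With Ccr2 below 100 CPM they were S100a6 (1.51), Emb (0.86), Fn1 (0.59), Plaur (0.16) and Abcg1 (1.03). No paired analysis was possible because the labels give no replicate numbers and the groups are cells of 1 sample. Depth limits detection: a 0 does not show that a transcript was absent from a cell.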
